A study of Mus musculus with 12 samples.

Results

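The tissue described here is the wild type mouse yolk sac between embryonic day 9.0 (E9.0) and E10.5. The members are the 6 wild type arrays out of 12 in the series, taken by their titles, with 3 arrays at E9.0 and 3 at E10.5. The other 6 arrays held yolk sacs lacking Hypb, the histone H3K36 methyltransferase gene now called Setd2, at both stages. They enter below in 1 comparison, and also in the estimate of spread behind every test and in the choice of probe set. Both wild type groups were Hypb+/+ embryos of the 129Sv/C57BL/6 strain, with no treatment. Each sample pooled the RNA of 4 yolk sacs, and the design names 3 biological repeats of each pool. The labels do not link pool 1, 2 or 3 of E9.0 to the pool of that number at E10.5, and they do not say which layers were dissected. Biotinylated cRNA from 5 micrograms of total RNA was hybridised to Affymetrix mouse expression arrays, which carry 1 or more probe sets per transcript.

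The visceral yolk sac is a bilayer of absorptive endoderm over a mesoderm that holds vessels, blood and mesothelium. Before the chorioallantoic placenta takes over, its endoderm carries nutrients to the embryo: it takes up maternal proteins and lipids, digests them in lysosomes, and secretes plasma proteins and lipoproteins, work that passes later to the fetal liver. Its mesoderm makes the first red cells, macrophages and megakaryocytes, and remodels a simple capillary net into larger vessels during the interval sampled here.

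The markers matched the labelled tissue at both stages. On the log2 scale of the deposited values, which run from 2.05 to 14.49 on these 6 arrays, the endoderm markers Afp, Ttr, Apob, Cubn and Amn lay between 11.85 and 14.21 in all 6 pools. The embryonic globin Hbb-bh1 lay between 14.32 and 14.49. Of the mesoderm markers, Acta2 lay between 11.59 and 12.03, Tek between 8.35 and 9.48 and Pdgfra between 8.16 and 9.81, whereas the mesothelial factor Wt1 was near the low end of the range at 3.82 to 4.93. Setd2 itself read 9.08, 9.03 and 8.83 at E9.0 and 8.77, 8.70 and 8.66 at E10.5 (adjusted p = 0.181). Array medians lay between 5.27 and 5.32, and the lowest rank correlation between pools of 1 stage (0.987) was above the highest between stages (0.986). Some controls also moved with stage: the mean of the added poly-A control transcripts was 8.75, 8.67 and 8.54 at E9.0 and 8.04, 8.22 and 7.54 at E10.5, and the 5′ probe set of 18S ribosomal RNA read 7.44, 7.31 and 8.21 against 5.84, 5.82 and 5.80. Pool 3 stood apart in other controls: the ratio of the hybridisation controls BioC to BioB was 0.24 there at E9.0 against 1.80 and 1.70 in pools 1 and 2, and the 3′ to 5′ ratio of the dap control was 1.83 at E9.0 and 1.85 at E10.5 against 1.29 to 1.44 in the other 4 pools, all on the log2 scale. The part of these controls in the results was not tested, and counts with pools 1 and 2 alone are given below for some groups.

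The main comparison asked which genes and functions rise and fall as the normal yolk sac grows from E9.0 to E10.5. Of 18193 genes tested, 4044 (22.2%) differed at an adjusted p under 0.05 in limma, 2432 upward (13.4%) and 1612 downward (8.86%). Rises were also larger: 460 genes rose at least 2-fold and 70 at least 4-fold, while 167 fell at least 2-fold and 8 at least 4-fold. The median change over all genes was 0.03. In 7271 genes (40%) the 3 pools of 1 stage all lay on 1 side of the other stage's 3 pools. These p-values set each change against the spread between pools of the same stage and genotype, with the knockout pools included. In whole tissue, more cells of a type and more RNA per cell cannot be told apart. The split of the calls depends on scaling: with each array centred on its median, 1749 genes were higher and 2464 lower, so 41.5% of calls were upward instead of 60.1%. The number of falls also moved with single pools, to 973 without E10.5 pool 3 and 1049 without E9.0 pool 2. A gene is called lower or higher below only where it passed this test.

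**Figure D1:**
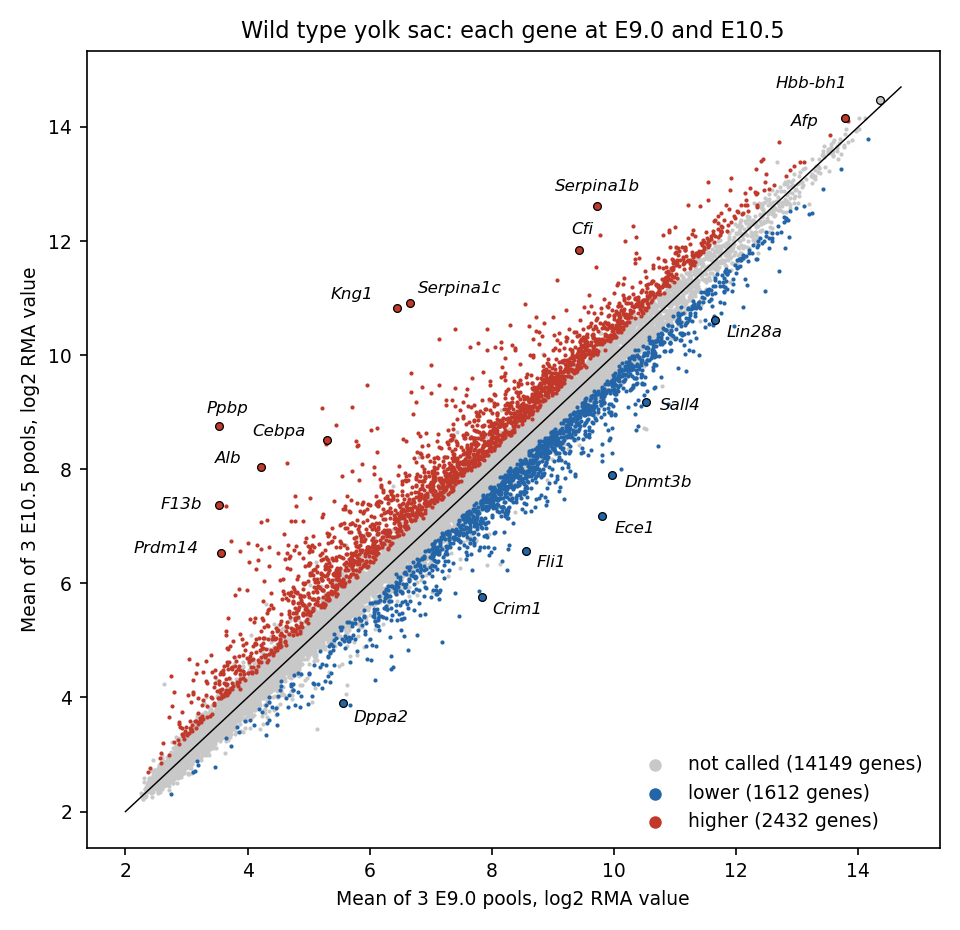
Mean log2 value of each of 18193 genes over the 3 E9.0 pools (x axis) and the 3 E10.5 pools (y axis), with genes called higher in red, called lower in blue and not called in grey, and the line of equal values. The farthest points above the line are Ppbp, Kng1 and Serpina1c, and the farthest named points below it are Ece1, Crim1 and Dnmt3b.

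Most genes for secreted plasma proteins rose. Of 57 measured, 32 were higher and 1 was lower, with a median change of 0.73 beside 0.03 over all genes, and between 30 and 33 were called higher with 1 pool left out. The carrier Alb, albumin, read 4.27, 3.84 and 4.55 at E9.0 and 8.07, 7.87 and 8.19 at E10.5, a change of 3.82 (SE 0.22, adjusted p = 5.33e-07). Hpx, the haem carrier hemopexin, changed by 2.27 (SE 0.21). Afp, the fetal counterpart of albumin, rose by 0.37, from 13.71, 13.76 and 13.90 to 14.09, 14.21 and 14.19 (adjusted p = 0.0113, not called without E9.0 pool 1), and Ttr, the thyroxine carrier transthyretin, stayed between 14.09 and 14.17 (adjusted p = 0.716). Both carriers lay close to the highest value on these arrays, 14.49, where a rise may not show.

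Among plasma proteins, protease inhibitors had 11 of 14 higher and none lower. Serpina1c, an alpha-1-antitrypsin, read 6.26, 6.73 and 6.98 at E9.0 and 10.74, 10.77 and 11.22 at E10.5, a change of 4.25 (SE 0.18, adjusted p = 2.95e-08). Its near-identical paralog Serpina1b rose by 2.89 (SE 0.16), and probe sets of this family can share transcripts. Kng1, the kininogen from which bradykinin is cut, went from 6.16, 6.2 and 6.99 to 10.46, 11.18 and 10.86. Serpind1, heparin cofactor II, rose by 3.07 and Itih2, which links hyaluronan to serum inhibitors, by 3.34.

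Clotting and complement genes moved the same way. Of 16 coagulation genes 8 were higher and none was lower. F13b, the carrier subunit of clot-stabilising factor XIII, read 3.35, 3.68 and 3.55 at E9.0, close to the floor, and 7.31, 7.57 and 7.26 at E10.5, a change of 3.85 (SE 0.15, adjusted p = 2.95e-08). Plg, plasminogen, rose by 1.61, Proc, the anticoagulant protein C, by 1.55, Fgg, a fibrinogen chain, by 1.42, and F2, prothrombin, by 1.40. Of 14 complement genes 9 were higher, among them the inhibitor Cfi (2.40), the lectin Mbl2 (1.95), the protease C1s1 (1.80) and the terminal components C8g (1.71) and C9 (1.45). Masp1, a protease of the lectin pathway, was the 1 plasma protein gene that fell, by 0.51 (adjusted p = 0.00828).

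Promoter sequences are shown for this group because its members moved together. Sequences are from RefSeq on GRCm38.p6, each from 250 bases before to 50 after the first listed start site of the gene. The motif searched on both strands was GTTAATNAT, part of the site bound by the liver factor HNF1, with its matches in capitals in Alb, F13b and Afp. In Cyp51, a cholesterol synthesis gene described below, capitals mark each CG. The 4 regions are Alb at chr5:90460620-90460919 (+), F13b at chr1:139501457-139501756 (+), Afp at chr5:90490464-90490763 (+) and Cyp51 at chr5:4104648-4104947 (-), each given 5′ to 3′ on the gene's strand.
Alb: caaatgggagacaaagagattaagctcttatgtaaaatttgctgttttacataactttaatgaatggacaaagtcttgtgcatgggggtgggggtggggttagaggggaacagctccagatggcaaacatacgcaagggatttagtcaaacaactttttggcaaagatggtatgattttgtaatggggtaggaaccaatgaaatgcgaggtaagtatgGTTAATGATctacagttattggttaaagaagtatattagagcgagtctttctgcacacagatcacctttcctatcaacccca
F13b: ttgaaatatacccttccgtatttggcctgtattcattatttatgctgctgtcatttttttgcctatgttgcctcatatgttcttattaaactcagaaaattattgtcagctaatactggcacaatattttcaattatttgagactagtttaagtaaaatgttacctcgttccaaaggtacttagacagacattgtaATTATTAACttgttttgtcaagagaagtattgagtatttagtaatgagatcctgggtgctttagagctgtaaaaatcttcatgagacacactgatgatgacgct
Afp: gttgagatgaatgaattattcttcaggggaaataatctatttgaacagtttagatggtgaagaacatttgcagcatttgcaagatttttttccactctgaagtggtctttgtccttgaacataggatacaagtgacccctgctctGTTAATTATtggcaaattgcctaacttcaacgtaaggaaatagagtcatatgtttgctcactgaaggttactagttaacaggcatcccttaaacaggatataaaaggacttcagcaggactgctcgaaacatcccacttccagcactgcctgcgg
Cyp51: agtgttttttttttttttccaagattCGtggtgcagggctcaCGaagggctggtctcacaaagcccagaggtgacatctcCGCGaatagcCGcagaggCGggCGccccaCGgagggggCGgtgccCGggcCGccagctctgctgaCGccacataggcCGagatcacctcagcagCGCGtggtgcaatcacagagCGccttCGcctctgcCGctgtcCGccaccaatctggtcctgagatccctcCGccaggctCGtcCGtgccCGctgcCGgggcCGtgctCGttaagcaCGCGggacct
This HNF1 motif begins at position -32 in Alb, -54 in F13b and -105 in Afp, counted from the start site. It was found in 4 of the 26 matched promoters among the 32 plasma protein genes called higher (15.4%), the other being Fga, against 0.8% of all 27025 promoters in the table. The C/EBP motif TTGCNNAA was found in 10 of these 26 (38.5%) against 10.8% of all promoters, and it shared no base with an HNF1 match in any of them. The 26 promoters held a median of 3 CG pairs against 7 over all promoters, and 88.5% of them held 5 or fewer, as did 43.6% of all. The 12 matched promoters of the 15 cholesterol synthesis genes called higher held a median of 24.5 CG pairs, and that of Cyp51 held 28. The 1973 matched promoters of all genes called higher (81.1% matched) held a median of 16, with 18.9% at 5 or fewer, and 1.3% of them held the HNF1 motif and 11% the C/EBP motif. Only 79.4% of the genes tested had a promoter in the table, under the minimum of 80%, so no share over all tested genes is given. Of the 27025 promoters 14452 belonged to tested genes, so the values over all promoters are not a background for the genes measured. A match describes letters only.

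Among transcription factor genes of the endoderm, Cebpa and Nr1h4 had the largest changes. Of 36 measured, 5 were higher (13.9%, beside 13.4% of all genes) and 6 lower (16.7%, beside 8.86%), with a median of -0.03. Cebpa, a regulator of liver and myeloid genes that is also on the myeloid list below, read 5.12, 4.97 and 5.83 at E9.0 and 7.96, 8.99 and 8.57 at E10.5, a change of 3.20 (SE 0.29, adjusted p = 1.79e-05). Nr1h4, the bile acid receptor FXR, went from 5.79, 5.70 and 5.91 to 8.35, 8.67 and 8.18. Mlxipl, the glucose-responsive factor ChREBP, rose by 0.94, Foxa3, a liver forkhead factor, by 0.93, and Tfec, a relative of the lysosomal regulator TFEB, by 0.90. The falls included Gata4, a founding factor of extraembryonic endoderm, at -0.82 (adjusted p = 0.028), and Hnf4a, a main regulator of hepatocyte genes, at -0.34 (adjusted p = 0.0499). Neither call was firm: Gata4 was not called in any fit without 1 pool, and Hnf4a was called only in the fit without E10.5 pool 2. The falls were the less stable side, with 1 of the 6 called without E9.0 pool 3 or E10.5 pool 3, 2 without E9.0 pool 2 or E10.5 pool 1 and 3 without either of the other pools, while at least 5 rises were called each time.

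Cholesterol synthesis genes rose almost as a block. Of 19 measured, 15 were higher and none lower, with a median of 0.77, and 14 or 15 were higher whichever pool was left out. Cyp51, which removes a methyl group from lanosterol, read 7.91, 8.26 and 7.74 at E9.0 and 9.48, 9.40 and 9.78 at E10.5, a change of 1.58 (SE 0.17, adjusted p = 5.04e-05). Msmo1, which acts on the next sterol intermediates, rose by 1.47 on its brightest probe set, but a second probe set read -0.33. Fdft1, squalene synthase, rose by 1.18, Sc5d, a sterol desaturase, by 1.18, and Tm7sf2, a sterol reductase, by 1.09. Fatty acid synthesis did not follow: 2 of 13 genes were higher, the elongase Elovl6 (0.62) and the citrate lyase Acly (0.48), and 1 was lower, the acetyl-CoA carboxylase Acaca (-0.60). Acly was not called without E9.0 pool 1 or E10.5 pool 3.

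Genes of fatty acid oxidation and ketone use also rose, with 18 of 27 higher, none lower and a median of 0.55. Decr1, which clears double bonds in mitochondria, went from 8.84, 9.14 and 9.30 to 10.22, 10.46 and 10.49, a change of 1.30 (SE 0.12). Oxct1, which activates ketone bodies, rose by 1.03, and Cpt1a, the gate for fatty acids into mitochondria, by 0.88. Slc27a2, a fatty acid transporter and acyl-CoA synthetase that was among the 20 largest rises, read 6.56, 6.67 and 8.16 at E9.0 and 9.93, 10.52 and 10.40 at E10.5. Oxidative phosphorylation genes shifted less: 17 of 40 were higher and none lower, with a median of 0.24 and a top change of 0.84 in Ndufa4, a respiratory chain subunit. With median centring 9 of the 40 were higher.

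In glucose metabolism the balance of rises and falls differed between pathways. Of 16 glycolysis genes 6 were lower (37.5%) and 3 higher (18.8%), beside 8.86% and 13.4% of all genes, so members moved in both directions. Their changes ran from -1.52 to 1.15. In the fits without 1 pool 4 or 5 were lower and 2 or 3 higher. Hk2, the inducible hexokinase, read 9.01, 9.06 and 8.60 at E9.0 and 7.64, 7.37 and 7.09 at E10.5, a fall of 1.52 on the log2 scale (SE 0.19, adjusted p = 0.000187), and the glucose transporters Slc2a1 and Slc2a3 changed by -0.79 and -0.45. Of 11 genes of gluconeogenesis and glycogen, 5 were higher and none lower. Pygl, liver glycogen phosphorylase, rose by 2.49, Fbp2, a fructose bisphosphatase, by 2.08, and Gys2, liver glycogen synthase, by 1.95. That count was 3 without E9.0 pool 1 or 3 or E10.5 pool 2 or 3, and 3 with pools 1 and 2 alone. Amino acid breakdown genes were higher in 10 of 24 and lower in 3 (none without E9.0 pool 1 or 2, 1 without any 1 E10.5 pool), led by Hgd of tyrosine breakdown (3.52), Bhmt, which remakes methionine from homocysteine (2.51), and Hal of histidine breakdown (1.62). A second probe set of Hgd read a change of 0.06. Amino acid and one-carbon synthesis leaned the other way, with 5 of 20 lower, such as the purine enzymes Atic (-0.72) and Gart (-0.57), and 1 higher, and 2 were lower without E10.5 pool 3 and 3 without E9.0 pool 2, E9.0 pool 3 or E10.5 pool 1. Atic was not called without E9.0 pool 3 or E10.5 pool 1 or 2.

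Detoxifying glutathione transferases rose in 12 of 17 measured, with none lower and a median of 0.84. Gsta3, a member of the alpha class, read 4.18, 4.08 and 4.47 at E9.0 and 7.83, 8.48 and 7.86 at E10.5, a change of 3.81 (SE 0.16, adjusted p = 2.95e-08), and its second probe set 1.67. The microsomal enzymes Mgst2 and Mgst1 rose by 3.01 and 2.61. Of 27 other genes of conjugation and oxidation 8 were higher and none lower, with Sult1d1, a sulfotransferase, at 2.02 and Fmo1, a flavin oxygenase, at 1.30. In retinoid metabolism 4 of 23 were higher (17.4%) and 2 lower (8.7%), near the 13.4% and 8.86% of all genes. Adh1, a retinol dehydrogenase, rose from 6.90, 6.94 and 7.16 to 9.52, 10.01 and 9.96, whereas Cyp26a1, which degrades retinoic acid, changed by -1.27 (adjusted p = 0.0427) and Rdh10, an enzyme that starts retinoic acid synthesis in embryos, by -0.73. Cyp26a1 was not called without E9.0 pool 1 or 2 or E10.5 pool 1 or 2.

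Uptake genes changed in both directions. Of 44 genes of uptake and the brush border 9 were higher (20.5%) and 6 lower (13.6%), beside 13.4% and 8.86% of all genes, with a median of 0.03, and 3 were lower without E9.0 pool 2 or E10.5 pool 1. Cubn, the receptor for vitamin B12 with intrinsic factor and for albumin, stayed between 13.27 and 13.36 (adjusted p = 0.689), and its partner Lrp2, megalin, between 10.10 and 10.51. Fcgrt, the neonatal Fc receptor that carries maternal antibody, read 8.4, 8.70 and 8.53 at E9.0 and 10.44, 11.05 and 11.22 at E10.5, a change of 2.36 (SE 0.22, adjusted p = 2.36e-05). Cltrn, collectrin, which holds amino acid transporters at the brush border, rose by 2.26. Igf2r, which delivers enzymes and IGF2 to lysosomes, fell by 0.85 on its brightest probe set while a second read 0.35. Lysosome genes were higher in 12 of 57 and lower in 3, including Gm2a, the activator of GM2 ganglioside breakdown (1.28), and Lamp2, a membrane protein (0.79), but the 12 became 6 without E10.5 pool 3 and 8 without E9.0 pool 2 or E10.5 pool 1, and the 3 to 1 without E9.0 pool 3 or E10.5 pool 1.

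Transport and lipoprotein genes changed in both directions, with more rises than falls. Among 34 lipoprotein genes 13 were higher and 4 lower, with none lower without E9.0 pool 2 or E10.5 pool 3 and 2 lower without E9.0 pool 1 or E10.5 pool 2 or with pools 1 and 2 alone. Apoc1 rose by 1.57, Apoa2 by 1.03 and Apoa1, the main protein of HDL, by 0.26 from a mean already near the top. The exporter Abca1, which loads cholesterol onto apolipoproteins, went from 9.02, 9.05 and 8.93 to 9.93, 10.27 and 10.09, and Lpl, lipoprotein lipase, rose by 1.15. Among 83 solute transporters 21 were higher (25.3%) and 12 lower (14.5%), beside 13.4% and 8.86% of all genes, with a median of 0.04. The organic cation carrier Slc22a2 rose by 1.49 and the amino acid carriers Slc1a1 and Slc3a1 by 1.28 and 1.19. The drug exporters Abcb1b and Abcb1a and the bile salt exporter Abcb11 rose by 1.36, 1.33 and 1.31. Slc16a7, a monocarboxylate carrier for lactate and pyruvate, was among the largest rises, from 3.65, 3.55 and 3.72 to 6.90, 7.56 and 7.60, while its relative Slc16a1 fell by 0.51 from a mean near 13. Apoa1 was not called in any fit without 1 pool or with median centring (0.17), and Slc16a1 was called only in the fit without E10.5 pool 3.

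Epithelial structure changed in a few genes. Cldn1 and Cldn4, claudins of tight junctions, rose by 2.34 and 1.74, and the keratins Krt20 and Krt7 by 2.71 and 1.91. Krt20 read 5.15, 5.88 and 6.30 at E9.0 and 8.15, 8.77 and 8.55 at E10.5. Dsg2 and Dsp, components of desmosomes, changed by -0.71 and -0.64. Of 37 junction genes 7 were higher (18.9%) and 4 lower (10.8%), beside 13.4% and 8.86% of all genes, with a median of 0.05. Only 2 were lower without E9.0 pool 1 or 2 or E10.5 pool 3. Dsp was called only in the fit without E10.5 pool 2.

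**Figure D2:**
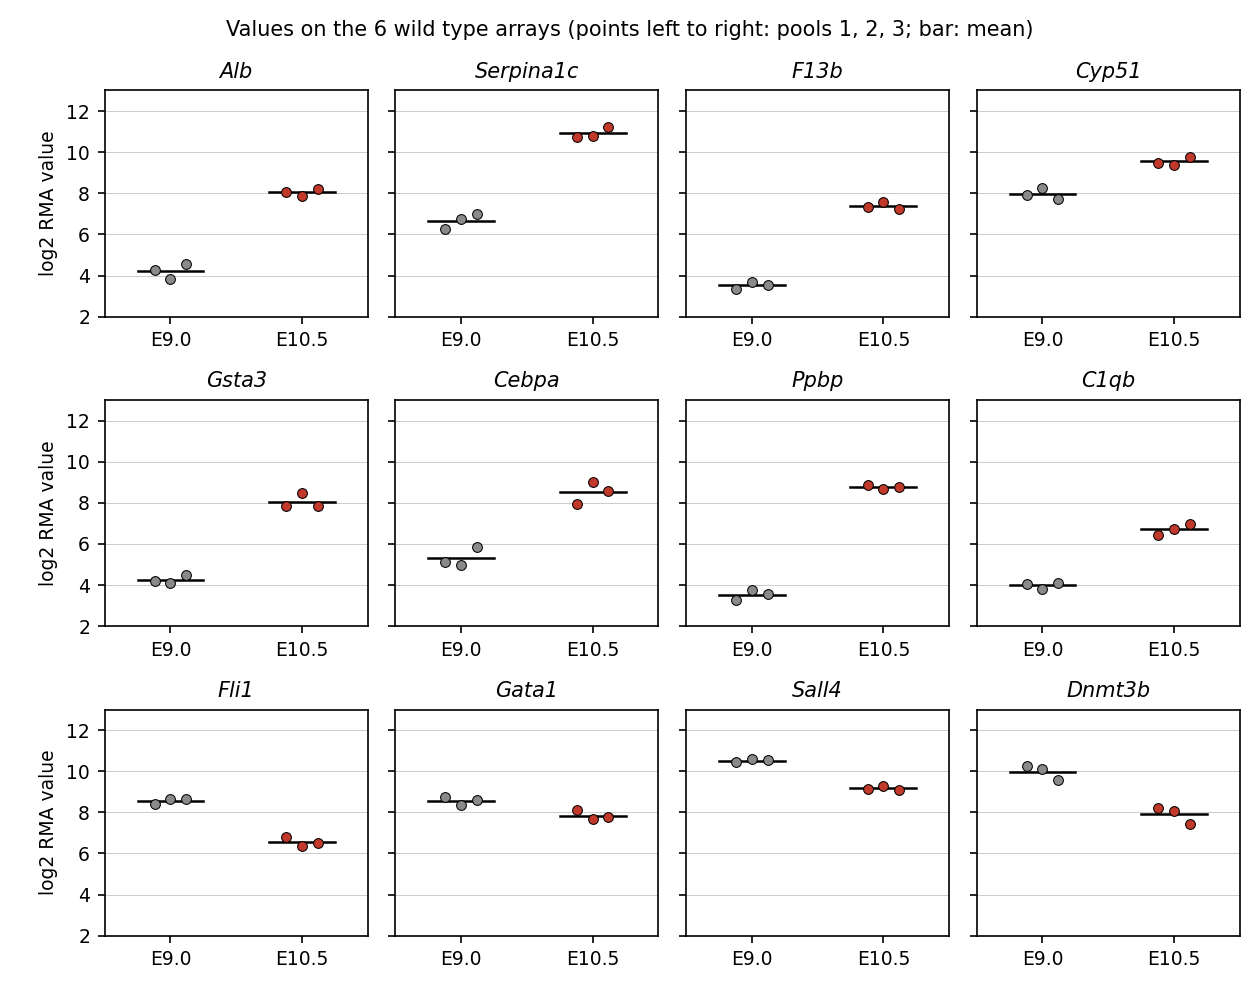
Log2 values on each of the 6 wild type arrays for 12 genes, with E9.0 pools in grey, E10.5 pools in red and the mean as a bar. In every panel the 3 E10.5 pools lie apart from the 3 E9.0 pools, above them for Alb, Serpina1c, F13b, Cyp51, Gsta3, Cebpa, Ppbp and C1qb and below them for Fli1, Gata1, Sall4 and Dnmt3b.

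Several red cell regulators fell, and none of the 6 globin genes measured was called. The embryonic globins of primitive red cells were at the top of the scale at both stages, where a rise may not show: Hba-x lay between 13.90 and 13.98, Hbb-bh1 between 14.32 and 14.49 and Hbb-y between 13.91 and 14.16, with changes of -0.04, 0.11 and 0.13 (adjusted p 0.798, 0.473 and 0.365). Probe sets that name several adult globin genes were not used. Of 12 red cell transcription factors 6 were lower and none higher, with a median of -0.57. Gata1, the central factor, read 8.74, 8.36 and 8.59 at E9.0 and 8.10, 7.65 and 7.77 at E10.5, a change of -0.72 (SE 0.20, adjusted p = 0.0212). Its cofactor Zfpm1 (FOG1) changed by -1.35, the globin locus activator Nfe2 by -0.98, the repressor Gfi1b by -0.85 and the bridging protein Lmo2 by -0.61, while Klf1, the activator of adult beta globin, read -0.67 without passing (adjusted p = 0.139). These 6 were 4 without E9.0 pool 1 or 3 or E10.5 pool 2 or 3, and 3 with pools 1 and 2 alone. Gata1 was among those lost, without E9.0 pool 1 or 3 or E10.5 pool 2 or 3 and with pools 1 and 2 alone. In haem synthesis 3 of 18 were lower (16.7%) and 2 higher (11.1%), beside 8.86% and 13.4% of all genes. Only 1 was higher in each fit without 1 pool, and the enzymes Cpox and Alad changed by -1.32 and -0.97. Over the whole red cell programme, with the factors included, 11 of 50 were lower (22%) and 3 higher (6%). In the fits without 1 pool 7 to 10 were lower and 1 to 3 higher. Rhd, a membrane protein of the red cell, had the largest rise, from 6.73, 6.66 and 7.09 to 8.23, 8.21 and 8.4.

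Platelet granule genes rose while the factors of their lineage fell. Ppbp, the platelet basic protein chemokine, had the largest rise of all 18193 genes, from 3.29, 3.77 and 3.56 to 8.89, 8.66 and 8.75, a change of 5.23 (SE 0.22, adjusted p = 2.95e-08) or 37.4-fold. Pf4, platelet factor 4, read 7.46, 7.43 and 8.86 at E9.0 and 10.74, 10.33 and 10.29 at E10.5. Vwf, which tethers platelets to vessel walls, rose by 1.13, and Clec1b, the platelet receptor for podoplanin, by 1.42. In all, 5 of 8 granule genes and 3 of 7 surface receptors were higher. Of 5 megakaryocyte transcription factors 4 were lower, led by Fli1 at -1.99. That list shares Nfe2 and Gfi1b with the red cell list and Fli1 with the endothelial list, so these falls are also counted there.

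Macrophage and myeloid genes rose in large part. Of 41 measured, 19 were higher (46.3%) and 2 lower, with a median of 0.43, while 15 to 18 were higher and 1 lower in each fit with 1 pool left out, and 15 higher and 1 lower with pools 1 and 2 alone. C1qb, a chain of complement C1q made by macrophages, read 4.06, 3.82 and 4.12 at E9.0 and 6.44, 6.73 and 6.96 at E10.5, a change of 2.71 (SE 0.21, adjusted p = 5.47e-06). Fcgr3, an Fc receptor, rose from 8.2, 8.41 and 8.27 to 10.34, 10.71 and 10.56, and Csf1r, the receptor macrophages need to survive, from 7.49, 7.24 and 7.37 to 8.68, 8.87 and 8.58. Tyrobp, an adaptor of myeloid receptors, rose by 1.76, and the lysozymes Lyz1 and Lyz2 by 1.91 and 1.39. The markers Cx3cr1 and Adgre1 rose by 0.57 and 0.67, to at most 4.35 and 6.01. Among the 2 falls was Lyve1, an endothelial as well as macrophage receptor for hyaluronan, at -0.79. Of the 41, 28 lay under the median level of all genes, and with those left out 7 of the remaining members were higher.

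Antigen presentation and interferon genes rose with them: 18 of 37 were higher and none lower, with a median of 0.48. B2m, the light chain of MHC class I, read 10.46, 10.25 and 10.23 at E9.0 and 12.29, 12.42 and 12.07 at E10.5, a change of 1.95 (SE 0.14, adjusted p = 4.22e-06). The heavy chains H2-K1 and H2-D1 rose by 0.82 and 0.74, the latter not called without E9.0 pool 2 or E10.5 pool 3, and the interferon-induced membrane proteins Ifitm3 and Ifitm1 by 1.72 and 1.28. Genes of blood progenitors, by contrast, were lower in 7 of 19 and higher in 1. Csf2rb, the shared receptor chain for IL-3 and GM-CSF, changed from 9.87, 9.66 and 9.89 to 8.13, 7.98 and 8.30, and Gata2, which maintains progenitors, by -0.84. The 1 that rose was Ptprc, the pan-leukocyte antigen CD45, by 1.33, with a second probe set at -0.04.

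Many endothelial genes fell. Of 39 measured, 16 were lower and 1 higher, with a median of -0.45, and centring raised the 16 to 22. Fli1, an ETS factor of endothelium and blood, read 8.41, 8.63 and 8.66 at E9.0 and 6.82, 6.38 and 6.52 at E10.5, a change of -1.99 (SE 0.24, adjusted p = 0.000136). Sox17, an arterial and endodermal factor, changed by -1.37, Nos3, endothelial nitric oxide synthase, by -1.07, Cdh5, the junction protein VE-cadherin, by -0.92, and Tek, the receptor of angiopoietins, by -0.70. Kdr, the main VEGF receptor, overlapped between stages, with 8.52, 8.76 and 8.0 against 7.77, 7.54 and 8.02 (adjusted p = 0.0443), and Pecam1 read 6.76, 6.89 and 6.2 against 7.0, 6.53 and 7.15 (adjusted p = 0.464). Emcn, a sialomucin of veins and capillaries, was the 1 that rose, by 0.78. The 16 became 9 without E9.0 pool 2 or E10.5 pool 2 and 10 without E10.5 pool 3. Cdh5 was not called without pool 2 of either stage, and Kdr was not called without pool 1 or 2 of either stage.

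**Figure D3:**
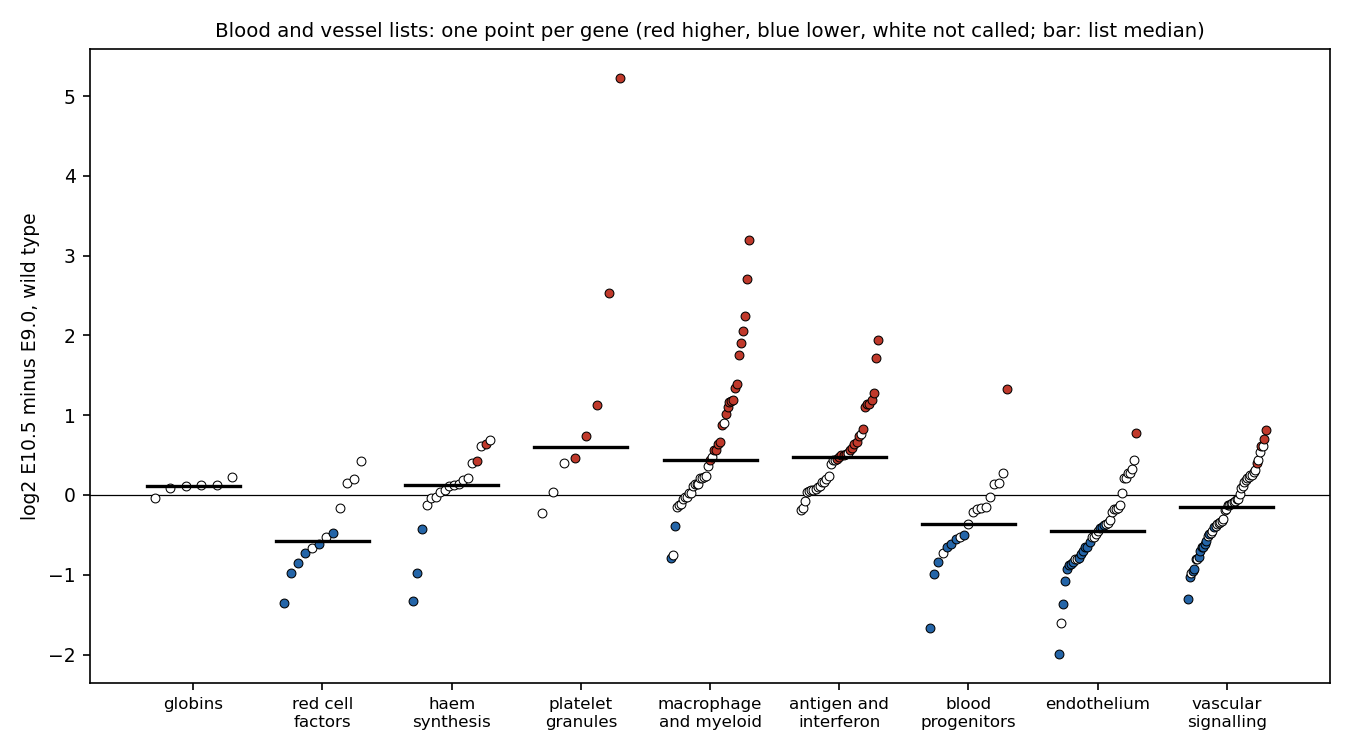
Log2 change from E9.0 to E10.5 in wild type (y axis) for every measured gene of 9 blood and vessel lists, 1 point per gene, sorted within each list, with red for called higher, blue for called lower, white for not called and a bar at the list median. The medians run from -0.57 in red cell factors to 0.60 in platelet granules, and Ppbp is the top point.

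Signals to vessels fell more often than they rose, in 13 of 52 against 4. Vegfa, the main vessel growth factor, changed by -0.49 with 8.32, 8.33 and 8.34 at E9.0 and 7.89, 7.8 and 7.82 at E10.5 (adjusted p = 0.00791), and its receptor Flt1 by -0.65. Bmp2 and Bmp6 changed by -1.30 and -1.03 and the BMP target Id3 by -0.95. Ihh, the hedgehog ligand that yolk sac endoderm sends to its mesoderm, changed by -0.99 and its receptor and target Ptch1 by -0.80. Cxcl12, a chemokine for vessels and blood cells, rose by 0.82, though 2 other probe sets read -0.08 and -0.01. Notch and arterial or venous genes were lower in 7 of 28 and higher in none, including the receptor Notch1 (-0.55) and the apelin receptor Aplnr (-1.0). The 13 became 8 without E10.5 pool 3 and the 4 became 2 without E9.0 pool 1 or 2 or E10.5 pool 3, while the 7 became 2 without E10.5 pool 3 and 4 without E9.0 pool 2. Flt1 was not called without pool 1 or 3 of either stage, Bmp2 without E9.0 pool 1 and Notch1 without E10.5 pool 3.

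Connective tissue genes rose in part. Of 31 fibrillar and interstitial matrix genes 11 were higher and 1 lower, with a median of 0.42. Lox, which crosslinks collagen, read 6.17, 5.92 and 6.25 at E9.0 and 8.10, 8.62 and 8.17 at E10.5, a change of 2.18 (SE 0.26, adjusted p = 0.000128). Col6a3, a microfibrillar collagen, rose by 1.35, Dcn, the collagen-binding decorin, by 1.97 and Lum, lumican, by 0.99. Of 21 smooth muscle genes 3 were higher (14.3%) and 2 lower (9.5%), near the 13.4% and 8.86% of all genes. Tagln and Myl9, contractile proteins of smooth muscle, rose by 1.41 and 1.86, while Acta2 did not pass (0.13, adjusted p = 0.604) and Smtn changed by -0.88. Of 15 mesothelial genes 4 were higher (26.7%) and 2 lower (13.3%), and of 29 mesenchymal genes 7 were higher (24.1%) and 3 lower (10.3%). The mesothelial rises were 2 without E9.0 pool 1 or E10.5 pool 3. The mesenchymal rises were 4 without E9.0 pool 2 or E10.5 pool 3. The mesenchymal factor Tcf21 rose by 1.37 and the mesothelial uroplakin Upk3b by 1.15. Zeb2, a repressor of epithelial genes, fell by 1.44 on its brightest probe set with 4 others between -0.55 and 0.16. The matrix count was 5 without E10.5 pool 3, 6 without E9.0 pool 1 or 2 and 7 without E10.5 pool 2, and 14 with pools 1 and 2 alone.

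Several early embryonic regulators fell. In the group of RNA-binding and growth regulators 9 of 23 were lower and 1 higher. Sall4, a factor of pluripotent cells, read 10.45, 10.57 and 10.53 at E9.0 and 9.15, 9.28 and 9.10 at E10.5, a change of -1.34 (SE 0.12, adjusted p = 1.85e-05). Lin28a, which blocks maturation of let-7 miRNAs, changed from 11.60, 11.78 and 11.56 to 10.51, 10.58 and 10.74. Its companions Trim71, Hmga2 and Dppa2 changed by -1.11, -1.38 and -1.66, whereas Lin28b was at the floor in every pool, at most 2.65. Prdm14, a repressor active in pluripotent and germ cells, went the other way, from 3.67, 3.49 and 3.52 to 6.61, 6.41 and 6.56 (adjusted p = 2.95e-08). Dnmt3b, a de novo DNA methyltransferase, changed by -2.07 with 10.23, 10.09 and 9.59 against 8.19, 8.06 and 7.45, and Tet1, which oxidises methylcytosine, by -1.24 (not called without E9.0 pool 1 or E10.5 pool 3). Of 14 Polycomb genes 4 were lower and none higher, including Suz12 (-0.75) and Ezh2 (-0.70), both of the H3K27 methylating complex.

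Growth and ribosome genes leaned downward. Of 20 ribosome biogenesis genes 10 were lower and none higher, with a median of -0.51. Mybbp1a, a nucleolar protein, read 11.08, 11.07 and 11.10 at E9.0 and 10.39, 10.39 and 10.03 at E10.5, and Polr1b, a subunit of RNA polymerase I, changed by -0.97 (not called without E10.5 pool 3). Ribosomal protein genes stayed level, with 1 of 19 higher, none lower and a median of 0.04. Of 79 cell cycle genes 18 were lower (22.8%) and 11 higher (13.9%), beside 8.86% and 13.4% of all genes. The G1 regulators Cdc25a, Ccnd2, Ccnd1, Mycn and Myc changed by -1.17, -1.12, -0.92, -0.85 and -0.73, and the replication licensing gene Mcm5 by -0.51. In mitosis the calls split, with 6 of 28 higher, such as Nusap1 (0.72) and Cdk1 (0.44), and 4 lower, such as Plk1 (-0.60). The count of cell cycle genes called higher was 5 with centring or without E9.0 pool 2 or E10.5 pool 3, and 7 without E9.0 pool 1 or E10.5 pool 1 or 2. The mitotic rises were 3 without E10.5 pool 1 or 3, and the mitotic falls 1 without E10.5 pool 3 and 2 without E9.0 pool 1 or 2.

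Several of the largest falls were not described in the groups above. Ece1, which activates endothelin, fell most, from 9.77, 9.77 and 9.89 to 7.21, 7.39 and 6.92, a change of -2.64 (SE 0.24, adjusted p = 1.89e-05), with 2 other probe sets at -0.94 and -0.44. Crim1, a BMP-binding membrane protein, changed by -2.09, Sema5a, a guidance cue, by -2.02 and Prss12, a secreted protease, by -1.94. Fgf13, an intracellular FGF relative, changed by -2.21. Of 18 FGF genes, Fgf13 among them, 5 were lower (27.8%) and 1 higher (5.6%), and 2 or 3 were lower in the fits without 1 pool. Among the largest rises not described above, Sgk2, a kinase related to the aldosterone-induced SGK1, rose by 3.85 and the cytochrome P450 gene Cyp2c68 by 3.39. Where a called gene had other probe sets, all of them shared its sign in 821 of 1237 rises (66.4%) and 795 of 1116 falls (71.2%).

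**Figure D4:**
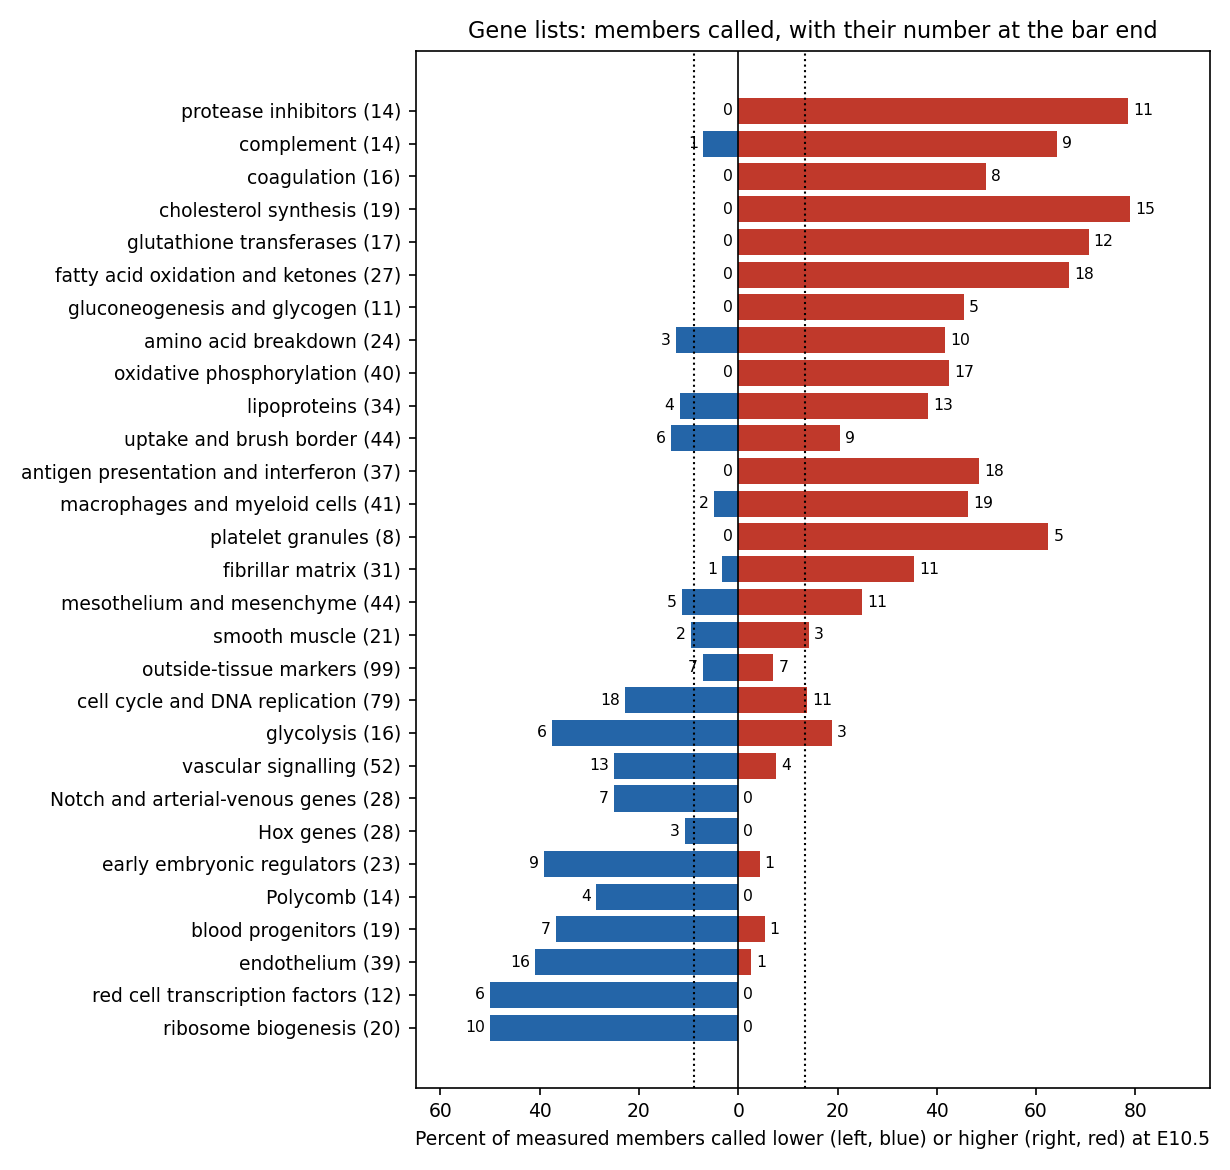
Percent of the measured members of 29 gene lists (number measured in brackets) called higher (red, right) or lower (blue, left) at E10.5, with the number called at each bar end. Dotted lines mark the share over all genes tested, 13.4% higher and 8.86% lower. Protease inhibitors and cholesterol synthesis have the longest red bars, and red cell transcription factors and ribosome biogenesis the longest blue bars.

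Markers of tissues that dissection can carry over were also read. Of 99 measured, 7 were higher and 7 lower (7.1% each), beside 13.4% and 8.86% of all genes. The falls were 4 without E9.0 pool 1 or E10.5 pool 2 and 11 with pools 1 and 2 alone. Of 22 neural markers 1 was higher, Fabp7, at most 4.17, and none was lower. Heart markers were lower in 2 of 17, both contractile genes: Tnnt2 read 5.47, 6.25 and 6.54 at E9.0 and 4.43, 4.12 and 4.39 at E10.5, and Myl7 5.32, 6.95 and 8.05 against 5.24, 4.93 and 5.12 (adjusted p = 0.0495), with the call of Myl7 lost in 5 of the 6 fits without 1 pool, all but the 1 without E9.0 pool 1. With pools 1 and 2 alone no heart marker was called. Nppa, Myl2 and Myh7, other heart genes, were at most 4.21 in all 6 pools. Parietal endoderm markers, a tissue next to the visceral yolk sac, were lower in 3 of 14 with a median of -0.82, in 1 without E9.0 pool 1 or E10.5 pool 2, and in 8 with pools 1 and 2 alone. Their level was highest in E9.0 pool 1, where Lama1 read 10.43 against 9.17 and 8.70 in the other E9.0 pools and 8.11 to 8.79 at E10.5. The basement membrane genes Col4a1 (-0.92) and Lamb1 (-0.88), which parietal endoderm also makes, read 13.18 and 11.97 in that pool, their highest value, and the part of this tissue in their change was not tested. Col4a1 was not called without E9.0 pool 1 or E10.5 pool 2, and Lamb1 was called only in the fit without E9.0 pool 3. Of 14 decidua markers 4 were higher (28.6%) and 1 lower (7.1%), beside 13.4% and 8.86% of all genes. Their changes ran from -1.30 to 1.97, with a median of 0.36. At least 4 were higher in each fit without 1 pool, and none was lower without E9.0 pool 1. The part of this tissue in the results was not tested. The decidual prolactin gene Prl8a2 lay between 7.64 and 10.60 in the 6 pools and did not pass (adjusted p = 0.974). The trophoblast markers Tpbpa, Prl7a2 and Cts8 were at most 3.30.

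The wild type change was set against that of the knockout in the same fit. Of 18193 genes, 34 (0.187%) changed differently with stage in the 2 genotypes, and the signed log2 change was higher in wild type for 15 and lower for 19, while 1510 had an unadjusted p under 0.05. Alb rose by 3.82 in wild type and by 1.55 in the knockout (difference 2.27, SE 0.31, adjusted p = 0.00987). Ppbp rose by 5.23 against 3.26, F13b by 3.85 against 2.50 and Prdm14 by 2.97 against 0.84. Lypd8, a LY6 family protein, rose by 2.29 against a difference of 0.07, Cltrn by 2.26 against 0.76, Abcb1b by 1.36 against 0.04 and Msmo1 by 1.47 against 0.40. On the other side, the interferon-induced genes Oasl2, Ifit1, Usp18, Rsad2 and Ifitm3 had log2 differences of 0.44, 0.52, 1.14, 1.14 and 1.72 in wild type and of 3.27, 3.03, 3.40, 3.18 and 3.54 in the knockout. Tyrobp rose by 1.76 against 2.85. The heart gene Tnnt2 had a log2 difference of -1.77 in wild type and 1.18 in the knockout. This count is small and moved with the settings: limma called 0 of 9099 brighter genes when dim genes were left out, 680 of them at an unadjusted p under 0.05, and 12 of all genes without E10.5 pool 2 and 21 without E10.5 pool 3.

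**Figure D5:**
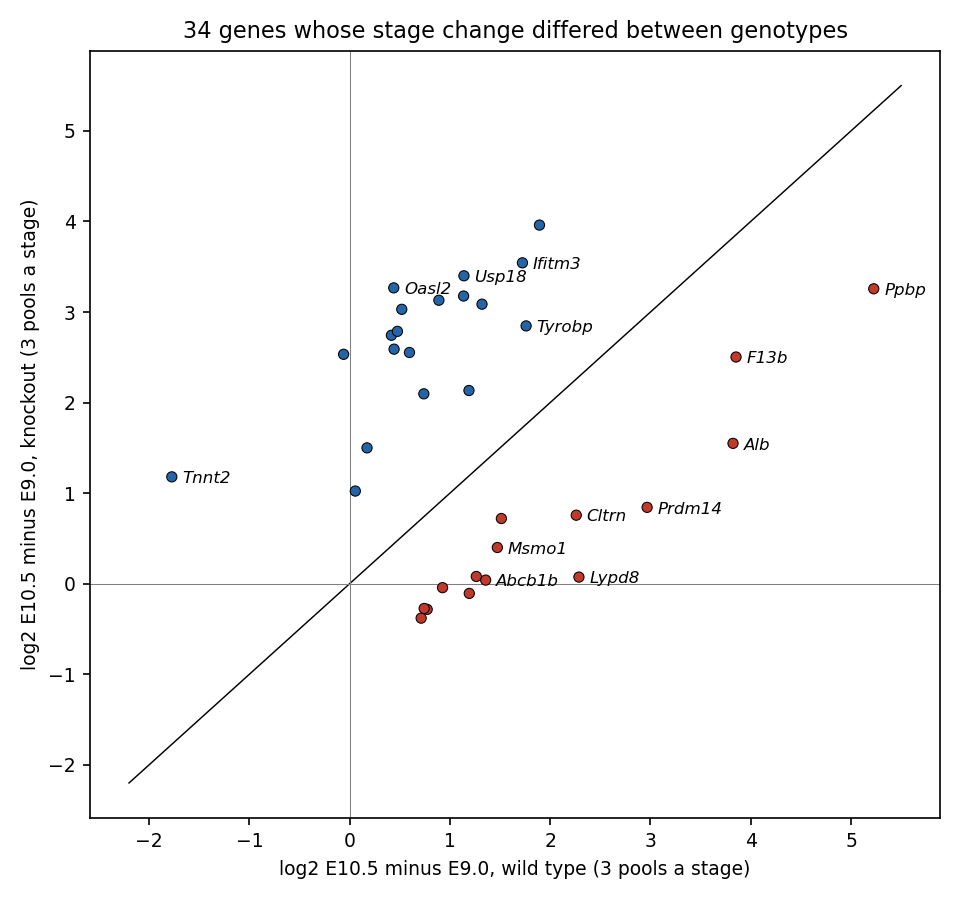
Log2 change from E9.0 to E10.5 in wild type (x axis) and in the knockout (y axis) for the 34 genes whose stage change differed between genotypes, with the line of equal change. Red points (15 genes) had the higher signed change in wild type and blue points (19 genes) the lower, and Tnnt2 is the point at -1.77 in wild type and 1.18 in the knockout.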

How the data were processed

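Expression was measured in 12 yolk sac pools on Affymetrix mouse arrays. The values deposited by the authors are log2 RMA values per probe set, per the submitters' processing notes; the software version is not given in the sources used here. Of 45101 probe sets, 64 controls were left out, 34945 name 1 symbol, 932 name several and 9160 have no entry in the platform table. Each of 18193 genes was represented by its brightest probe set, by the mean of the 12 arrays, and 18032 symbols matched RefSeq. Limma 3.58.1 in R 4.3.3 fitted 1 mean per group over all 12 arrays (8 residual degrees of freedom), with two-sided tests and Benjamini-Hochberg adjustment over all genes at 0.05. Each array held 1 pool and each group 3 arrays, which limits the precision, and the median SE was 0.126. Fits were tested on simulated data. Named genes are the 20 largest changes in each direction with pools apart, up to 5 called members per subgroup and direction, all globins, markers fixed by name, and the 5 largest genotype differences in each direction. Fga was named after its promoter was read. Members and gene lists were chosen with earlier results of these data known. Alternatives were the 6 wild type arrays alone, the replicate number as a block, median centring, quantile normalisation, dim genes left out, the mean of all probe sets, each pool left out, and pools 1 and 2 only.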

Additional observations from a re-analysis of the deposited data

Results flagged for a closer look

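In 34 genes the change with stage in wild type yolk sacs differed from that in the knockout, by the test of the difference itself. A positive value below is the extra log2 rise in wild type. It was 2.27 for Alb, 1.97 for Ppbp, 1.35 for F13b, 2.12 for Prdm14, 2.21 for Lypd8, 1.5 for Cltrn, 1.32 for Abcb1b and 1.07 for Msmo1. It was -2.95 for Tnnt2, -1.09 for Tyrobp, -1.82 for Ifitm3, -2.26 for Usp18, -2.04 for Rsad2, -2.83 for Oasl2 and -2.51 for Ifit1. In each genotype and stage 3 pools were read, and groups of 3 are too small for a test of single outlying pools.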

How the results depend on the processing

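Total calls lay between 3529 and 4548 under the other scalings, gene summaries and samples tried, and between 2911 and 3614 with 1 wild type pool left out. The 3529 came from the setting with dim genes left out, which tested 9099 genes instead of 18193. Rises were 1816 to 2328 with 1 pool left out and 1749 with median centring. Falls were 973 to 1286 with 1 pool left out and 2464 with median centring. Of the 4044 calls, 2347 passed in all 6 fits without 1 pool, and 3213 passed with pools 1 and 2 alone. The sign changed for 50 called genes with the mean of all probe sets of a gene and for none under the other settings. The count of genes whose stage change differed between genotypes was 61 with the replicate block, 53 with median centring, 0 with dim genes left out (680 at an unadjusted p under 0.05, lowest adjusted p 0.0772) and 12 to 35 with 1 pool left out. The cause of these shifts was not tested. With stage means removed, same-numbered pools of the 2 stages correlated at 0.193, -0.03 and 0.098, and differently numbered pools at -0.176 to 0.043. With the replicate block 4548 genes were called. Whether same-numbered pools shared a processing step was not tested. Of 188 called genes named here, 166 were called in all 6 fits without 1 wild type pool, and the other 22 are given with the pools concerned.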

Other observations

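Signalling and growth genes outside the groups above gave a mixed picture. The p53 and apoptosis list had 6 of 19 higher and none lower, with all fits that left out 1 pool giving 6. Pmaip1, the death gene Noxa, read 5.52, 5.99 and 5.96 at E9.0 and 7.37, 7.85 and 8.19 at E10.5 (adjusted p = 0.000538), Trp53inp1, a p53-induced stress protein, rose by 1.19 and Fas, a death receptor, by 1.19. A second probe set of Trp53inp1 read 0.14.

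Of 28 Hox genes 3 were lower (10.7%, near the 8.86% of all genes) and none higher: Hoxb5 (-0.77), Hoxb6 (-0.75) and Hoxb2 (-0.72). Of 29 Wnt genes 4 were higher (13.8%) and 5 lower (17.2%), beside 13.4% and 8.86% of all genes. The falls were 2 without E10.5 pool 3 and 3 without E10.5 pool 1 or with pools 1 and 2 alone. The Wnt antagonist Sfrp1 rose by 1.59, the antagonist Dkk2 by 1.45 and the ligand Wnt2 by 1.29, while the receptor Fzd4 changed by -1.24 (not called without E10.5 pool 3). In the growth factor axis, Igfbp1, which binds IGFs in plasma, rose by 1.63, Igf1 changed by -0.95 and Igf2 did not pass (adjusted p = 0.368). Heph, an iron oxidase used in iron export, rose by 1.51.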
